A study of Mus musculus with 48 samples.

Results

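Immunoglobulin genes are assembled from separate gene segments, and the count table of this study lists each annotated segment as a gene of its own. The members described here are the mouse immunoglobulin segments, that is the variable (V), diversity (D), joining (J) and constant (C) segments, whose counts summed over the 48 libraries came to at least 100. The members were thus chosen by their measured total count, and 202 of the 264 listed immunoglobulin segments, out of 54532 listed genes, met it. They comprised 176 V segments, 1 D segment, 12 J segments and 13 constant region genes. Near that limit Igkv3-9 (101 counts), Ighv1-31 (112), Ighv12-3 (115) and the D segment Ighd4-1 (117) lay just inside, whereas Ighv8-5 (97), Igkv1-132 (88), Igkv5-37 (72) and Ighv1-49 (70) lay just outside. The libraries were RNA-seq of inguinal subcutaneous white adipose tissue (sWAT, iWAT in the labels) from C57BL/6 mice aged 8 months (C57BL/6J males in the study's text), fed either ad libitum (Ad-Lib in the labels, here AL) or twice-a-night (TAN), the latter having food only in 2 windows of the dark phase. The labels name no transgene, deletion or drug in either group. Tissue was taken at 8 AM, 12 PM, 4 PM, 8 PM, 12 AM and 4 AM, with 4 libraries per diet and time, numbered 1 to 4, giving 12 groups. The captions of the study count mice, but the labels do not tie a library to a mouse, so p-values measure the spread between these libraries, which may be technical in part. The series text speaks of stromal vascular cells and the methods of whole sWAT, and the summed level of 5 adipocyte genes (Adipoq, Plin1, Cidec, Lipe and Fabp4) was at least 4179 CPM (counts scaled to a common library total after TMM scaling, the trimmed-mean method of edgeR) in all 48 libraries.

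In a developing B cell the RAG1 and RAG2 recombinases join a V segment, in the heavy chain also a D segment, to a J segment, and the joined exon is spliced to a constant region gene. Naive B cells make IgM and IgD from the same heavy chain transcript, class switching replaces them by IgG, IgA or IgE, and plasma cells secrete the product. Light chains come from the kappa or the lambda locus. Adipose tissue holds B cells of its own, and the inguinal depot encloses a lymph node rich in them. In bulk tissue a lower level of a segment can come from fewer B cells or plasma cells of the adipose tissue. It can also come from less lymph node in the piece taken or from less RNA per cell, and these cannot be told apart here. The heavy chain members (99) lay on chr12:113254830-116000461, the kappa members (93) on chr6:67609713-70726966 and the lambda members (10) on chr16:19061618-19260859, in the GRCm38 build of the GENCODE M21 annotation that the table's gene identifiers match.

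Some J segments are shown because they are short and because several differed between diets. The members Igkj1 and Ighj1 and the lambda J segments are not printed. A read counted to one overlaps this short stretch, in joined or germline form, and need not reach the recombination joint. Capitals mark TTCGG or TGGGG, any 4 bases, then GG on the coding strand, which spells the phenylalanine or tryptophan and the glycine motif of the junction. The sequences are 5′ to 3′ on the coding strand, from GENCODE M21 on GRCm38. The kappa J segments shown, on the plus strand of chromosome 6, were:
Igkj2 (chr6:70722916-70722954): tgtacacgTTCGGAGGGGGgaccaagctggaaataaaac
Igkj3 (chr6:70723223-70723260): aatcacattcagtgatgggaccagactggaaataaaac
Igkj4 (chr6:70723548-70723585): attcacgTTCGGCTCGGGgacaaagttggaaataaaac
Igkj5 (chr6:70723886-70723923): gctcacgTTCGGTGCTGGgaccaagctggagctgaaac
The heavy chain J segments shown, on the minus strand of chromosome 12, were:
Ighj2 (chr12:113429468-113429515): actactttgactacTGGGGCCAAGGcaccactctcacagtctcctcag
Ighj3 (chr12:113429085-113429132): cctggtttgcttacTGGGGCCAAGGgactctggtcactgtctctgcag
Ighj4 (chr12:113428514-113428567): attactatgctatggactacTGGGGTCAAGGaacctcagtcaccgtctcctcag
For Ighj2, Igkj2 and Igkj5 the annotation holds a second transcript, and the gene that was counted spans 100, 43 and 42 bases, whereas the shorter or J-coding transcript is shown. These letters were found in 10 of the 12 J segments and not in Igkj3 or Iglj3p. Of 1569 windows of 38 bases cut from the 176 V transcripts, 4 (0.255%) held them on the same strand and 5 (0.319%) on either strand.

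V segments of a family are close copies, so reads may be split or misplaced between them and the count of any one V segment is uncertain. Of the 176 V members, 129 (73.3%) were at least 90% identical to another member over their transcripts, 78 (44.3%) at least 95% and 4 at least 98%. The last 60 bases of 4 heavy chain V segments of the Ighv1 family described below, which end at the codon of the conserved cysteine and the first bases of the junction, show how alike they are (GENCODE M21, GRCm38, minus strand of chromosome 12, with the coordinates of the shortest annotated transcript, no base singled out, and with the counted Ighv1-19 gene reaching to position 114709135):
Ighv1-64 (chr12:115507545-115508031): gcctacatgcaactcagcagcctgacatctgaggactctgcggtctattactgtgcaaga
Ighv1-53 (chr12:115158403-115158835): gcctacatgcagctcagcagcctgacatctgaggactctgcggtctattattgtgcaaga
Ighv1-26 (chr12:114788372-114788805): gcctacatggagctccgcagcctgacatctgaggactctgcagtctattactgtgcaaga
Ighv1-19 (chr12:114708648-114709081): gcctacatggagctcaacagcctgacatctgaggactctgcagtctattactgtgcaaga
Over the whole transcript Ighv1-53 was 95.4% identical to Ighv1-64, Ighv1-26 was 96.6% identical to Ighv1-22 and Iglv1 was 96.3% identical to Iglv2. The lincRNA Gm30211 (6623 counts) spans Igkc and the 5 kappa J segments on the same strand, and 2010309G21Rik (1428 counts) lies opposite 6 lambda members. Whether the counting used strand is not given in the sources used here.

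Library totals ran from 15636378 to 29913310 counts in AL and from 15685080 to 25440243 in TAN, and 193 members passed the filter on low counts (168 V, 12 J and 13 constant). Pairwise correlations of log2(count + 1) between libraries, over the genes tested, ran from 0.751 to 0.963 and no libraries were identical. TAN replicate 1 at 4 PM (15693 genes detected), TAN replicate 1 at 8 PM (15271) and TAN replicate 2 at 8 PM (15866) had fewer than 16000 genes detected. The numbers of members called at 4 PM and 8 PM are given with and without them. Counts of members separated between the diets or shared between times are given only with them. The summed level of 16 B cell genes was 11.7 to 43.7 CPM in 10 libraries, 4 of AL and 6 of TAN, and at least 307.6 CPM in the other libraries. Those were AL replicate 4 at 8 AM, AL replicates 1 and 3 at 12 PM, AL replicate 3 at 4 AM, TAN replicates 1, 2 and 4 at 4 PM, TAN replicate 4 at 8 PM and TAN replicates 2 and 4 at 12 AM.

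The members together took 0.0124% to 0.849% of the counts of a library, with a median of 0.343% in AL and 0.185% in TAN. Of their 2564642 counts, 84.1% lay on constant region genes, 15.1% on V segments, 0.782% on J segments and 0.00456% on the D segment. Per kilobase of transcript, Igkc, the only kappa constant gene, was the most abundant member (median 1557 CPM per kb in AL and 933 in TAN). Ighm, the constant gene of IgM, followed with medians of 505 and 337 CPM per kb, and Ighd, that of IgD, with 181 and 113 CPM per kb. The lambda constant genes Iglc2 (126 and 90.7 CPM per kb), Iglc3 (72.2 and 56.0) and Iglc1 (65.6 and 47.0) came next. Of the IgG genes, Ighg2c (39.9 and 14.7 CPM per kb) and Ighg2b (21.7 and 5.86) were above Ighg1 (12.2 and 2.13) and Ighg3 (3.82 and 1.56), while Igha, the IgA gene, was at 9.14 and 5.13 CPM per kb. Iglc4 (0.629 and 0.182 CPM per kb) and Ighe, the IgE gene (0.133 and 0), were lowest. The ranges over the libraries of a diet overlapped between all neighbours in this order, so the order is that of medians.

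At 4 PM, late in the light phase, V, J and constant segments of all 3 loci were lower in TAN sWAT. The members took 0.623%, 0.352%, 0.849% and 0.332% of the counts in AL replicates 1 to 4 and 0.0336%, 0.0220%, 0.0760% and 0.0255% in TAN replicates 1 to 4, without overlap. A segment is called when its adjusted p is under 0.05 and its log2 fold change (TAN minus AL) is beyond 1 in the quasi-likelihood test of edgeR, where p-values are adjusted by the Benjamini-Hochberg method over all 19977 genes tested. By that rule 111 of 193 tested members (57.5%) were lower and 0 were higher, where 7.43% of all genes tested were called lower. By the fold limit and an unadjusted p under 0.05, 0 were higher as well. The 111 held 43 of 79 heavy chain V, 48 of 86 kappa V, all 3 lambda V, 7 of 12 J and 10 of 13 constant members. The median fitted log2 fold change of the tested members was -5.0, and -3.39 with segments at 0 in all 4 TAN libraries put at their bound, whereas that of all genes was -0.09. All 4 TAN libraries lay below all 4 AL libraries in 145 members (75.1%), against 17.8% of all genes tested, and 100 of the 145 were also called. Of the members called, 52 had no count in any TAN library at this time.

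Other immune genes moved at 4 PM as well, where 7.43% of all genes tested were called lower. The summed level of 16 B cell genes was 1165 to 2088 CPM in AL and 14.3 to 308 CPM in TAN, with 9 of 16 lower, that of 8 T cell genes 391 to 711 and 8.59 to 159 CPM, with 2 of 8 lower, and that of 6 lymph node venule and stroma genes 128 to 202 and 6.16 to 53.1 CPM, with 2 of 6 lower. Glycam1, a mucin of lymph node venules, had 0 counts in TAN replicates 1 and 2 and 0.558 and 13.0 CPM in replicates 4 and 3, against 31.6 to 54.0 CPM in AL. With the mean level of the 16 B cell genes as a covariate, an alternative chosen after the data were seen, 0 members were called at this time. The B cell gene sums of the diets did not overlap at 4 PM, so at this time the fit cannot separate diet from B cell gene level. In that fit the log2 fold change was -5.13 for Ighv1-53 (adjusted p = 0.302), -3.22 for Ighg2b (0.429), -1.71 for Igkc (0.402) and -1.15 for Ighm (0.344). Without the 3 libraries of fewer than 16000 genes detected, of which TAN replicate 1 is in this comparison, 67 were called, and 12 of the 27 named members called were lost (adjusted p 0.0520 to 0.110). Leaving out AL replicate 3, TAN replicate 1, TAN replicate 2 or TAN replicate 4 at 4 PM gave 37, 38, 67 and 65 calls.

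**Figure D1:**
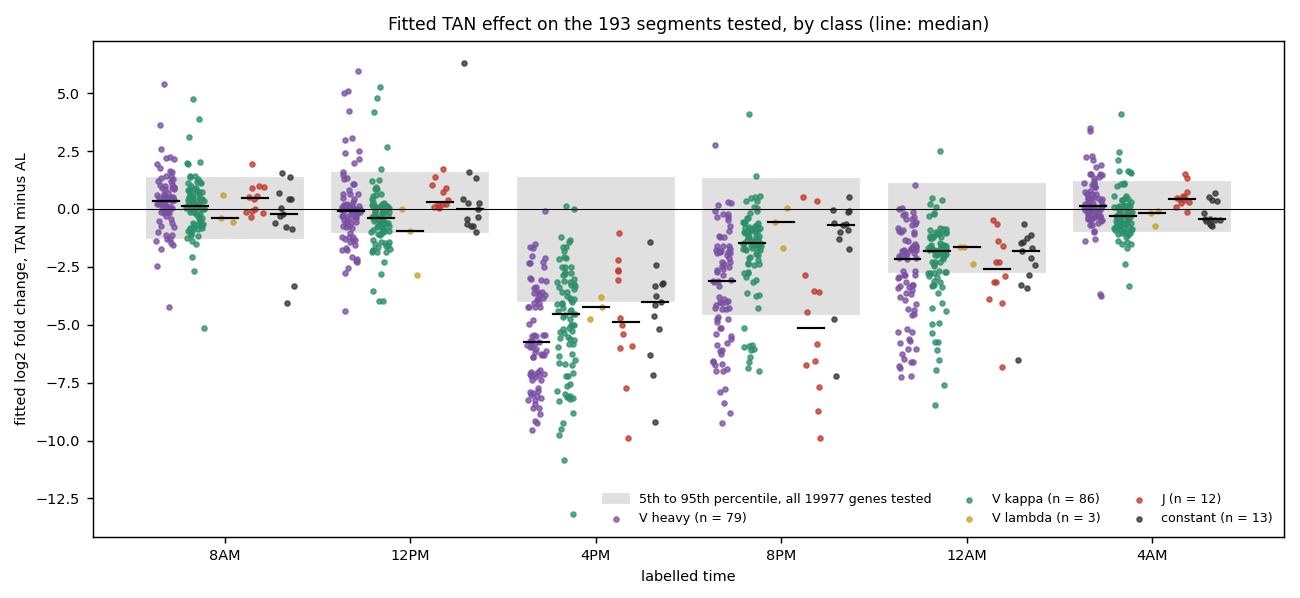
Fitted log2 fold change (TAN minus AL) of each tested segment at each labelled time, by class (V heavy n = 79, V kappa n = 86, V lambda n = 3, J n = 12, constant n = 13), with lines at medians and a grey band for the 5th to 95th percentile of all 19977 genes. The points of each class lie mostly below 0 at 4 PM, 8 PM and 12 AM, and those of the heavy V, kappa V and constant classes lie on both sides of it at the other 3 times.

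Among heavy chain constant genes, 7 of 8 were lower at 4 PM. Ighm, which encodes the constant region of IgM, had 794, 998, 2137 and 992 CPM in AL and 217, 161, 327 and 215 CPM in TAN. The highest TAN library thus lay below the lowest AL library, and the log2 fold change was -2.42 (SE 0.50, adjusted p = 0.00705). Ighd had 298, 295, 486 and 414 CPM in AL and 11.3, 4.81, 64.0 and 3.57 CPM in TAN, a log2 fold change of -4.15 (SE 1.42, adjusted p = 0.0435). TAN replicate 3, the TAN library with the highest B cell gene sum, was also the highest for Ighd. The Ighd call was lost when any of the 8 libraries other than TAN replicate 3 was left out, with adjusted p-values up to 0.121. The IgA gene Igha had 18, 24.5, 27.6 and 30.8 CPM in AL and 8.00, 11.8, 7.54 and 10.6 CPM in TAN. The groups did not overlap, but the log2 fold change of -1.41 (SE 0.59) had an adjusted p of 0.0883.

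The switched IgG genes spread widely among the AL libraries at 4 PM and were near 0 in TAN. Ighg1 had 199, 8.27, 601 and 15.1 CPM in AL and 0.671, 0, 3.29 and 1.62 CPM in TAN (log2 fold change -7.18, SE 1.97, adjusted p = 0.0184). Ighg2b had 418, 96.6, 329 and 69.7 CPM in AL and 0.671, 0.973, 8.14 and 1.67 CPM in TAN (log2 fold change -6.30, SE 1.53, adjusted p = 0.0116). Both were separated between the diets in every library, with AL replicates 1 and 3 the highest. Ighg2c had 671, 57.0, 267 and 19.2 CPM in AL and 11.2, 0.054, 27.7 and 2.46 CPM in TAN (log2 fold change -4.61, SE 1.57, adjusted p = 0.0425), and here TAN replicate 3 exceeded AL replicate 4. Ighg3 had 9.76, 49.8, 70.6 and 14.5 CPM in AL and 3.84 CPM in TAN replicate 3, with 0 in the other TAN libraries (log2 fold change -5.18, SE 1.68, adjusted p = 0.0356). Ighe, the gene of the IgE heavy chain, had 91, 0, 200 and 29 counts in AL and 0 in all 4 TAN libraries (adjusted p = 0.0213), at least 21.6-fold lower by a floor of 3 counts per library. Each of these calls except that of Ighg2b was lost on leaving out AL replicate 3 or TAN replicate 1, with adjusted p-values up to 0.0704 for Ighg1, 0.12 for Ighg2c, 0.104 for Ighg3 and 0.0643 for Ighe. Ighg2c was also lost without AL replicates 1 or 4 or TAN replicates 2 or 4, and Ighg3 without AL replicates 2 or 4 or TAN replicates 2 or 4.

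Light chain constant genes moved with them. Igkc had 1912, 908, 1939 and 691 CPM in AL and 101, 29.4, 242 and 29.3 CPM in TAN, without overlap (log2 fold change -3.76, SE 0.90, adjusted p = 0.0111). Iglc1 had 51.5, 30.4, 93.7 and 23.8 CPM in AL and 4.33, 3.57, 10.9 and 0.837 CPM in TAN (log2 fold change -3.34, SE 1.04, adjusted p = 0.0309). Iglc2 had 74.4, 75.8, 95.6 and 78.4 CPM in AL and 9.09, 2.86, 21.3 and 0.837 CPM in TAN (log2 fold change -3.24, SE 1.05, adjusted p = 0.0357). The diets were separated for both lambda genes, with TAN replicate 3 the highest TAN library. Iglc3 had 32.5, 30.9, 39.6 and 24.2 CPM in AL and 0.793, 0.162, 11.8 and 0.781 CPM in TAN, with an adjusted p of 0.0695 that went to 0.0224 without TAN replicate 3. Iglc4, which had 263 counts over all libraries, had at most 0.598 CPM in AL and no call (adjusted p = 0.113). The Iglc1 call was lost without AL replicate 3 or TAN replicates 1, 2 or 4 (adjusted p up to 0.101), and that of Iglc2 without AL replicates 1, 3 or 4 or TAN replicates 1, 2 or 4 (up to 0.0929). The calls of Ighm, Ighg2b and Igkc held without any 1 library.

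**Figure D2:**
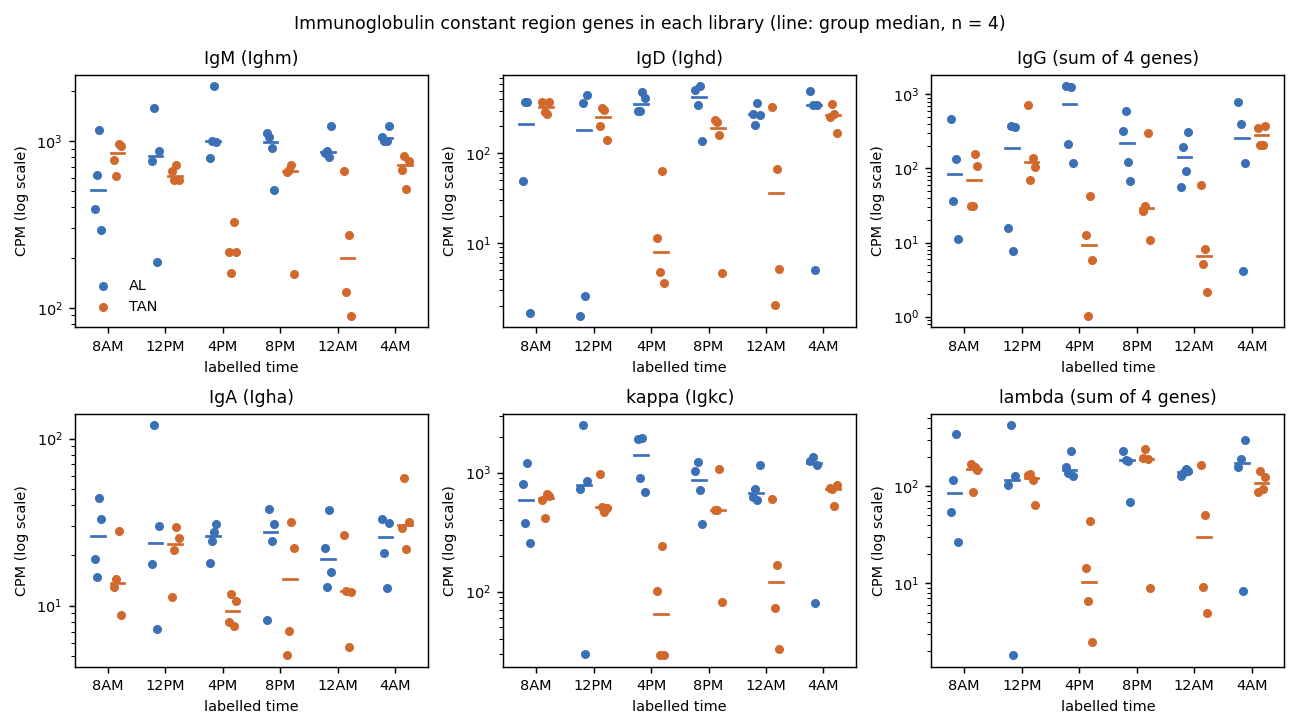
Level in CPM (log axis) of IgM (Ighm), IgD (Ighd), IgG (sum of 4 genes), IgA (Igha), kappa (Igkc) and lambda (sum of 4 genes) constant regions at each labelled time, with 1 point per library and a line at the median of 4 libraries (blue AL, orange TAN). TAN libraries lie below AL libraries in all 6 panels at 4 PM, and the IgD panel also has AL libraries below 3 CPM at 8 AM and 12 PM.

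J segment reads, which mark joined or germline J exons, were few, and at 4 PM they numbered 565, 404, 1177 and 993 over the 12 segments in AL and 0, 34, 90 and 23 in TAN. Igkj2 had 59, 75, 141 and 140 counts in AL and 5 counts in TAN replicate 3 only (log2 fold change -6.01, SE 1.43, adjusted p = 0.0107). Igkj4 had 130, 75, 186 and 149 counts in AL and 0, 3, 8 and 3 in TAN (log2 fold change -5.0, SE 1.21, adjusted p = 0.0111). Igkj5 had 115, 76, 170 and 158 counts in AL and 0 in all TAN libraries, at least 35.0-fold lower (adjusted p = 0.00727). The counts of Igkj3 were 87, 76, 198 and 252 in AL and 0, 0, 12 and 0 in TAN (log2 fold change -5.39, SE 1.46, adjusted p = 0.0179). For all 4 the diets were fully separated. Igkj1, the kappa J segment with the fewest counts, had 87, 18, 64 and 49 in AL against 0, 4, 10 and 16 in TAN, and was not called (adjusted p = 0.208). Of the heavy chain J segments, Ighj2 had 18, 14, 52 and 35 counts in AL and 0 in TAN (at least 7.75-fold lower, adjusted p = 0.0113). Ighj4 had 24, 33, 100 and 60 counts in AL and 0, 6, 0 and 0 in TAN (log2 fold change -4.72, SE 1.38, adjusted p = 0.0237). Ighj1 and Ighj3 were not called (adjusted p = 0.678 and 0.123). In the lambda locus Iglj3, with 4, 0, 19 and 12 counts in AL and 0 in TAN, was called at the edge (at least 2.18-fold lower, adjusted p = 0.0458), whereas Iglj1 (0.208) and Iglj3p (0.252) were not. Without AL replicate 3 or TAN replicate 1 the calls of Igkj3 (adjusted p up to 0.0645) and Ighj4 (up to 0.0781, and also without TAN replicates 3 or 4) were lost, that of Iglj3 was lost without any library except AL replicate 2 (up to 0.115), and Iglj1 was called without TAN replicate 3 (0.038).

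**Figure D3:**
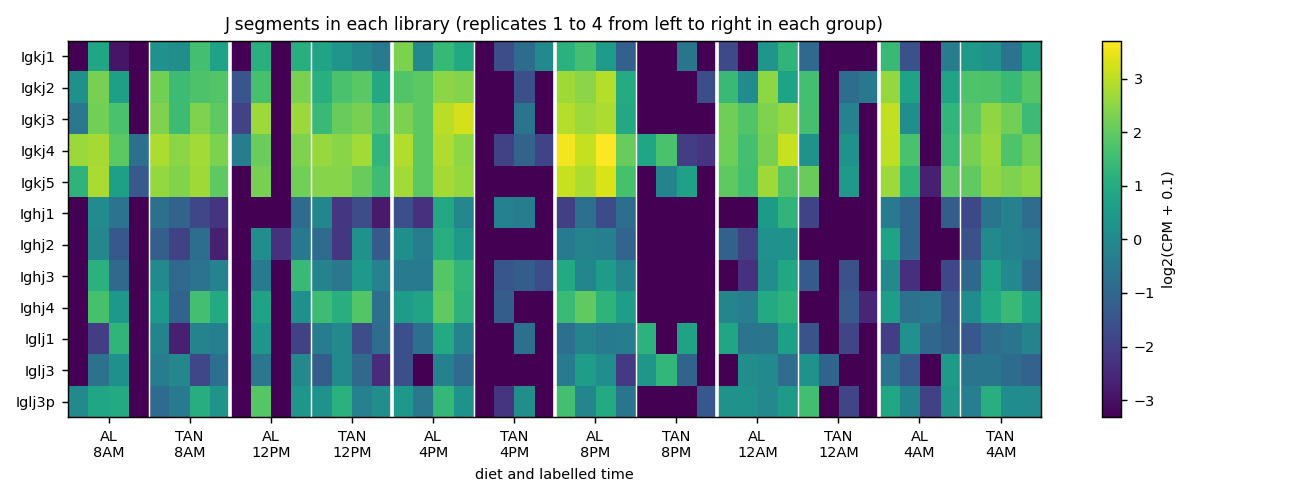
Heat map of log2(CPM + 0.1) of the 12 J segments (rows) in each of the 48 libraries (columns, by diet and labelled time). Dark columns, with J segments at or near 0, include the TAN libraries at 4 PM and several at 8 PM and 12 AM, and the AL libraries with a B cell gene sum below 50 CPM.

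V segments supply most of the antigen-binding site, and the 3 with the most counts in each locus are given. Of the heavy chain segments, Ighv3-6 had 1317, 138, 467 and 147 counts in AL at 4 PM and 0, 1, 0 and 12 in TAN (log2 fold change -7.16, SE 1.77, adjusted p = 0.0122). Ighv1-53 had 381, 119, 649 and 132 counts in AL and 11, 5, 0 and 0 in TAN (log2 fold change -5.95, SE 1.26, adjusted p = 0.00724). Both were separated between the diets and both were called without any 1 library. Ighv1-26 had 149, 121, 410 and 510 counts in AL and 84 counts in TAN replicate 3 alone, with an adjusted p of 0.0838 that went to 0.0189 without that library. Of the kappa segments, Igkv10-96 had 264, 290, 603 and 551 counts in AL and 0, 8, 90 and 7 in TAN (log2 fold change -3.84, SE 1.3, adjusted p = 0.0412). Igkv1-117 had 193, 231, 517 and 306 counts in AL and 48 in TAN replicate 3 alone (log2 fold change -4.52, SE 1.25, adjusted p = 0.019). Igkv3-2 had 79, 110, 586 and 136 counts in AL and 9, 51, 47 and 0 in TAN, separated but not called (adjusted p = 0.102). The lambda segments are few in the mouse and each was called. Iglv1 had 934, 607, 1825 and 598 counts in AL and 12, 40, 192 and 10 in TAN (log2 fold change -3.82, SE 1.09, adjusted p = 0.0213). Iglv2 (log2 fold change -4.22, SE 1.11, adjusted p = 0.0155) and Iglv3 (-4.73, SE 1.38, adjusted p = 0.023) behaved alike, although Iglv3 is only 57.7% identical to Iglv1. Left-out libraries ended the calls of Igkv10-96 (any except TAN replicate 3, adjusted p up to 0.12), Igkv1-117 (AL replicate 3 or TAN replicate 1, 0.0681), Iglv1 (AL replicate 3, TAN replicate 1 or 4, 0.077), Iglv2 (TAN replicate 1, 0.0523) and Iglv3 (AL replicate 3, TAN replicates 1, 2 or 4, 0.0785).

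The V segments with the largest fold among those called and separated at 4 PM, with at least 10 counts in each AL library, were by the fitted fold change Igkv3-1 and Igkv4-55, both at 0 in all TAN libraries, for which that fold depends on the prior count and gives no rank against Ighv3-6 or others. Igkv3-1 had 3699, 62, 167 and 12 counts in AL (at least 338-fold lower in TAN, adjusted p = 0.00618). That bound rests on AL replicate 1, which held 78.3% of the 4725 counts of Igkv3-1 in the series. Igkv4-55 had 74, 80, 167 and 165 counts in AL and was at least 32-fold lower (adjusted p = 0.00818). By family, 22 of the 40 tested Ighv1 segments, the largest heavy chain family, and 14 of the 22 tested Igkv4 segments were lower, as were all 4 of Ighv3 and of Igkv5, 5 of 6 of Igkv12 and all 3 of Igkv10. The Igkv6 family, with 9.65% of V counts against 13.7% for Ighv1 and 8.29% for Igkv4, had 3 of 9 lower.

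At 8 PM, when lights went off, 5.84% of all genes tested were called lower. By the fold limit and an unadjusted p under 0.05, 1 member was higher, and the share of all genes by this looser rule is not given here. Of 193 tested members, 28 (14.5%) were called lower and 0 higher. They were 16 heavy chain V, 7 kappa V and 5 J segments, and no constant gene was among them. All 4 TAN libraries lay below all 4 AL libraries in 48 members (24.9%), against 11.6% of all genes tested, and 23 of these were called. The 8 PM and 4 PM calls shared 16 members, 57.1% of the 8 PM calls and 14.4% of the 4 PM calls, from different libraries of each diet. The summed level of the 16 B cell genes was 620 to 2349 CPM in AL and 39.5 to 1222 CPM in TAN, none of the 16 was called, and the groups overlapped. TAN replicates 1 and 2, the libraries with 15271 and 15866 genes detected, had T cell sums of 2013.5 and 2093 CPM, TAN replicates 3 and 4 had 383 and 16.3 CPM, and the AL libraries 295 to 759 CPM. Glycam1 ran from 1.24 to 117 CPM in TAN and from 19.6 to 48.4 CPM in AL, and the adipocyte sum from 4179 to 34672 and from 7676 to 21386 CPM. The part of these markers was not tested. With the B cell covariate 32 members were called. Without the 3 libraries of fewer than 16000 genes detected, 2 of which are in the TAN group at 8 PM, 11 were called, and a fit to the 8 PM libraries alone called 1. Leaving out AL replicates 1, 2 or 3 or TAN replicates 1 or 2 at 8 PM gave 16, 15, 16, 16 and 14 calls.

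Ighm was not separated at 8 PM, with 1119, 1063, 913 and 511 CPM in AL and 656, 675, 716 and 161 CPM in TAN (log2 fold change -0.71, SE 0.47, adjusted p = 0.35). Igkc had 1029, 1220, 716 and 371 CPM in AL and 484, 481, 1081 and 81.9 CPM in TAN (log2 fold change -0.65, SE 0.81, adjusted p = 0.658). In both genes AL replicate 4 lay within the TAN range, and for Igkc so did AL replicates 1 and 3. J segments in the same libraries had 1213, 803, 1096 and 362 counts in AL and 101, 158, 88 and 11 in TAN. Igkj3 had 198, 128, 166 and 41 counts in AL and 0 in all TAN libraries (at least 38.7-fold lower, adjusted p = 0.00392). Igkj2 had 170, 113, 175 and 44 counts in AL and 4 in TAN replicate 4 only (log2 fold change -6.55, SE 1.47, adjusted p = 0.00585). Neither gave a TAN library a count near the AL values. All 4 heavy chain J segments were at 0 in every TAN library at 8 PM. Ighj4 (70, 79, 53 and 32 counts in AL, at least 17.4-fold lower, adjusted p = 0.00378), Ighj3 (49, 17, 32 and 19, at least 8.36-fold, adjusted p = 0.0136) and Ighj2 (17, 16, 17 and 9, at least 4.35-fold, adjusted p = 0.0155) were called, and Ighj1 (4, 10, 5 and 11, adjusted p = 0.0557) was not. Igkj4 (315, 171, 304 and 95 counts in AL, 33, 78, 3 and 2 in TAN) and Igkj5 (226, 146, 230 and 71 in AL, 0, 20, 32 and 0 in TAN) were separated but had adjusted p-values of 0.062 and 0.0565. Among V segments Ighv1-64 had 88, 69, 29 and 66 counts in AL and 0 in TAN (at least 18.5-fold lower, adjusted p = 0.00418), and Ighv1-19 had 45, 97, 40 and 27 in AL and 1 count in TAN replicate 4 (log2 fold change -6.99, SE 1.85, adjusted p = 0.0151). The calls of Igkj2, Igkj3, Ighj2, Ighj3, Ighj4, Ighv1-64 and Ighv1-19 at 8 PM held without any 1 library. Without the 3 libraries of fewer than 16000 genes detected, those of Ighj2 (adjusted p = 0.0636), Ighj3 (0.0550) and Ighv1-19 (0.0797) were lost and Igkj4 was called (0.0156).

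At 12 AM 0 members were called (adjusted p at least 0.110), where 0.0250% of all genes tested were called lower. By the fold limit and an unadjusted p under 0.05, 66 were lower and 0 higher. The share of all genes tested that passed this looser rule is not given here. DESeq2 called 20 members and limma voom 2. All 4 TAN libraries lay below all 4 AL libraries in 48 members (24.9%), against 5.54% of all genes tested. Ighm had 846, 875, 798 and 1232 CPM in AL and 663, 125, 274 and 89.7 CPM in TAN, separated with a log2 fold change of -1.70 (SE 0.49, adjusted p = 0.118). Igkc had 618, 722, 589 and 1167 CPM in AL and 601, 72.6, 168 and 32.7 CPM in TAN (log2 fold change -1.82, SE 0.83, adjusted p = 0.244). In both genes TAN replicate 1 lay near or among the AL libraries and the other 3 TAN libraries below them. Without TAN replicate 1, 16 members were called, among them Ighm (log2 fold change -2.47, adjusted p = 0.0103) and Igkc (-3.03, adjusted p = 0.0493). The summed B cell genes ran from 1104 to 1533 CPM in AL and from 16.8 to 1475 CPM in TAN, where replicates 2 and 4 are among the 10 libraries below 50 CPM. The T cell sum was 351 to 527 CPM in AL and 6.34 to 796 CPM in TAN, that of the lymph node genes 175 to 193 and 8.58 to 217 CPM, and that of the adipocyte genes 12638 to 18054 and 17558 to 33428 CPM. Their part in the segment values was not tested.

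The 3 remaining times gave no calls. At 8 AM, 12 PM and 4 AM the medians of the fitted log2 fold changes of the tested members were 0.23, -0.18 and -0.09, and DESeq2 and limma voom also called 0. By the fold limit and an unadjusted p under 0.05, 3 members were higher and 4 lower at 8 AM. By the same limits 8 were higher and 6 lower at 12 PM, and 1 higher and 1 lower at 4 AM. The shares of all genes tested that passed this looser rule at these times are not given here. At 12 PM all TAN libraries lay above all AL libraries in 2 of 193 tested members (3.30% of all genes tested), Ighv5-15 and Igkv4-69, which had no counts in AL and at most 15 in a TAN library. At 4 AM all TAN libraries lay below all AL libraries in 1 of 193 (1.18% of all genes tested), Ighm, with 1060, 994, 1007 and 1230 CPM in AL and 672, 811, 514 and 759 CPM in TAN. AL libraries were uneven at these times: Ighd had 49.4, 378, 377 and 1.66 CPM in AL replicates 1 to 4 at 8 AM and 1.55, 361, 2.57 and 446 CPM at 12 PM, but 275 to 373 and 140 to 319 CPM in TAN. The AL values of Ighd below 3 CPM fell in libraries with a B cell gene sum below 50 CPM.

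Averaged over the 6 times, 146 of 193 tested members were lower in TAN by the fold limit and an unadjusted p under 0.05. The share of all genes tested that passed this looser rule over the mean is not given here. By the fold limit and the adjusted p, 76 (39.4%) were lower and 0 higher, where 1.59% of all genes tested were called lower. They were 37 heavy chain V, 27 kappa V, the lambda segment Iglv2, 7 J and 4 constant members. The 4 constant genes were Igkc (log2 fold change -1.27, SE 0.33, adjusted p = 0.0209), Ighg1 (-2.94, SE 0.66, adjusted p = 0.00774), Ighg2b (-1.70, SE 0.51, adjusted p = 0.0425) and Ighg2c (-1.86, SE 0.57, adjusted p = 0.0465). Ighm had an adjusted p of 0.00446 but a log2 fold change of -0.91 (SE 0.19), which does not pass the fold limit. Ighd (-1.02, SE 0.51, adjusted p = 0.242) and Igha (-0.66, SE 0.24, adjusted p = 0.0895) were not called. Of the J segments, Ighj2 (-3.48, SE 0.61, adjusted p = 0.00085), Igkj3 (-2.64, SE 0.58, adjusted p = 0.00665) and Ighj4 (-2.29, SE 0.54, adjusted p = 0.0109) had the lowest p-values. The V segment Ighv1-64 had a log2 fold change of -2.75 (SE 0.53, adjusted p = 0.00184). The mean pools times at which no member was called with the 4 PM group, and 58 of its 76 calls were also called at 4 PM. Leaving out all libraries numbered 2 gave 3 calls and leaving out those numbered 4 gave 16, and the calls of Igkc, Ighg1, Ighg2b and Ighj4 were lost in both, those of Ighg2c and Igkj4 also without those numbered 1. Without the 3 libraries of fewer than 16000 genes detected the calls of Ighg2b (adjusted p = 0.0723) and Ighg2c (0.0717) were lost. With the B cell covariate 40 were called.

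Within TAN, 66 of 193 tested members (34.2%) varied over the 6 times (adjusted p under 0.05), where 23.0% of all genes tested did. Within AL, 1 did, Igkv3-1 (adjusted p = 0.00925), where 0.0551% of all genes tested did. In AL 13 members had an unadjusted p under 0.05, and the share of all genes by that rule is not given here. The AL result for Igkv3-1 rests on its 3699 counts in AL replicate 1 at 4 PM and was lost without the libraries numbered 1, 2 or 4. The TAN set held 35 heavy chain V, 20 kappa V, 7 J and 4 constant members (Ighm, adjusted p = 0.0228, Ighg1, 0.0138, Ighg2b, 0.0211, and Ighe, 0.00819). The TAN effect itself differed between times in 36 members (18.7%), where 8.98% of all genes tested differed. They were 20 heavy chain V, 8 kappa V, 6 J (Ighj2, Ighj4 and Igkj2 to Igkj5) and the constant genes Ighm (adjusted p = 0.0407) and Ighe (0.022). Igkc, Ighd and the IgG genes were not among them. Leaving out all libraries of any 1 number gave 0 to 6 of these and 1 (number 2) to 55 of the TAN set (36 without number 1, 33 without number 4).

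The classes did not keep their proportions in every library. Of the counts on the 8 heavy chain constant genes, IgM took 32.9% to 97.9% (median 64.3% in AL and 66.9% in TAN), IgD 0.197% to 35.9% (18.8% and 19.1%), IgG 0.400% to 53.8% (11.5% and 6.23%) and IgA 0.423% to 11.1% (1.78% and 2.30%). At 4 PM IgM took 32.9%, 65.3%, 54.4% and 63.7% in AL and 87.2%, 90.1%, 74.1% and 91.5% in TAN, without overlap. IgG took 53.8%, 13.8%, 32.3% and 7.61% in AL and 5.05%, 0.574%, 9.73% and 2.45% in TAN at that time, and AL replicate 4 lay below TAN replicate 3. The 4 PM IgA share was 0.745%, 1.60%, 0.704% and 1.98% in AL and 3.21%, 6.59%, 1.71% and 4.52% in TAN. IgA thus took a larger share in 3 of 4 TAN libraries than in any AL library while its level was lower. The lambda share of light chain constant counts was 5.72% to 33.2%, with medians of 13.2% in AL and 16% in TAN. These shares are descriptions with no test.

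**Figure D4:**
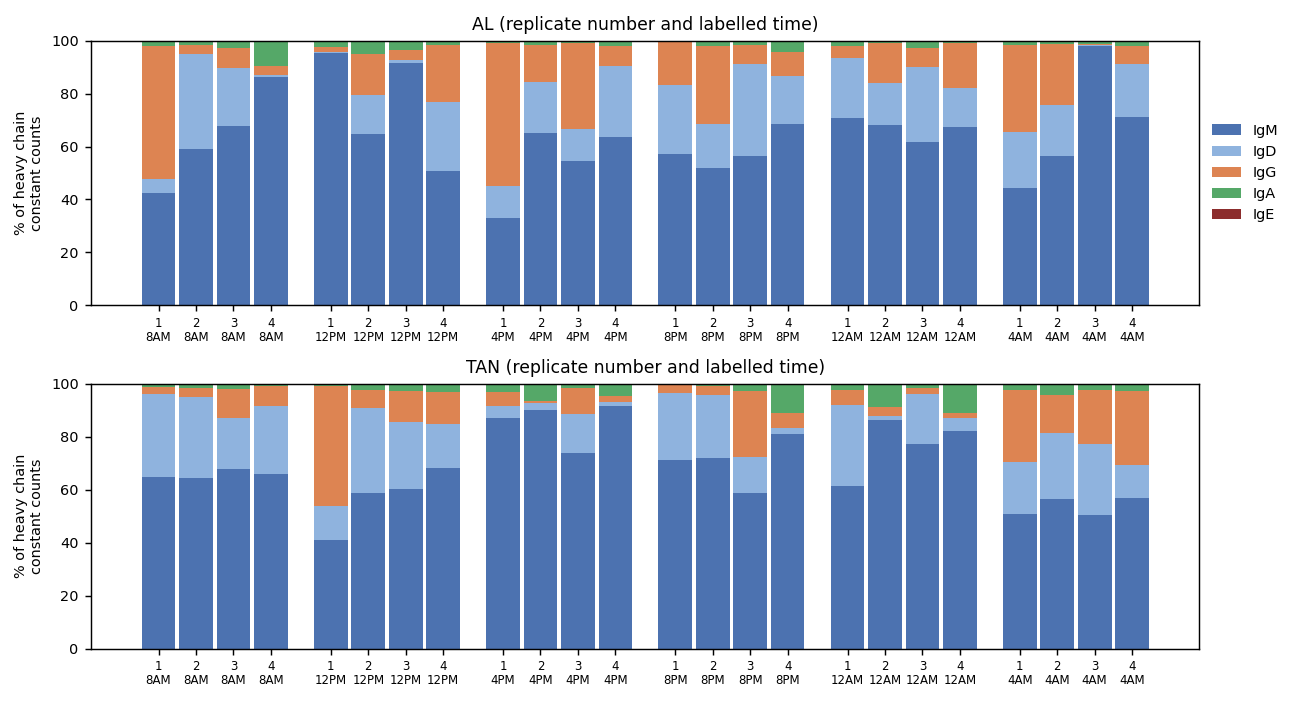
Stacked bars of the share (%) of heavy chain constant counts on IgM, IgD, IgG (4 genes), IgA and IgE genes in each library, AL above and TAN below, ordered by labelled time. IgM takes 74.1% to 91.5% of the bar in the TAN libraries at 4 PM and 32.9% to 65.3% in the AL libraries.

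The breadth of V segments in use also varied between libraries, and the lower values were not always in TAN. Of the 176 V members, 163, 165, 173 and 168 had a count in the AL libraries at 4 PM and 27, 26, 87 and 32 in the TAN libraries, from 17772, 11155, 24260 and 12079 V counts in AL and 480, 218, 2280 and 229 in TAN. A smaller number of counts reaches fewer segments, so each library was also thinned to 100 V counts, which gave 43.2, 58.1, 56.0 and 56.8 expected segments in AL and 25.2, 22.2, 46.0 and 26.8 in TAN. Thinned in this way, TAN replicate 3 exceeded AL replicate 1, whose leading segment Igkv3-1 held 20.8% of its V counts, and the other 3 TAN libraries lay below all AL libraries. At 8 PM the thinned values were 55.1, 52.6, 58.6 and 56.4 in AL and 37.6, 36.4, 44.4 and 35.5 in TAN, without overlap. TAN replicates 1 and 2 at 8 PM are libraries of fewer than 16000 genes detected, TAN replicate 4 is one of the 10 with few B cell gene counts, and TAN replicate 3, which is neither, also lay below the AL libraries. At 12 AM they were 51.6, 52.2, 55.5 and 52.1 in AL and 52.5, 28.5, 46.6 and 16.9 in TAN, with replicates 2 and 4 again those with few B cell gene counts. At 8 AM the thinned values ran from 26.2 to 55.5 in AL and from 50.6 to 56.7 in TAN. They ran from 21.9 to 54.8 and from 51.7 to 56.9 at 12 PM, and from 27.7 to 55.1 and from 50.9 to 55.8 at 4 AM. The lowest AL value at each of these times came from a library with few B cell gene counts. V counts of 1 transcript are not independent reads of separate cells, so these numbers describe libraries and not numbers of clones.

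**Figure D5:**
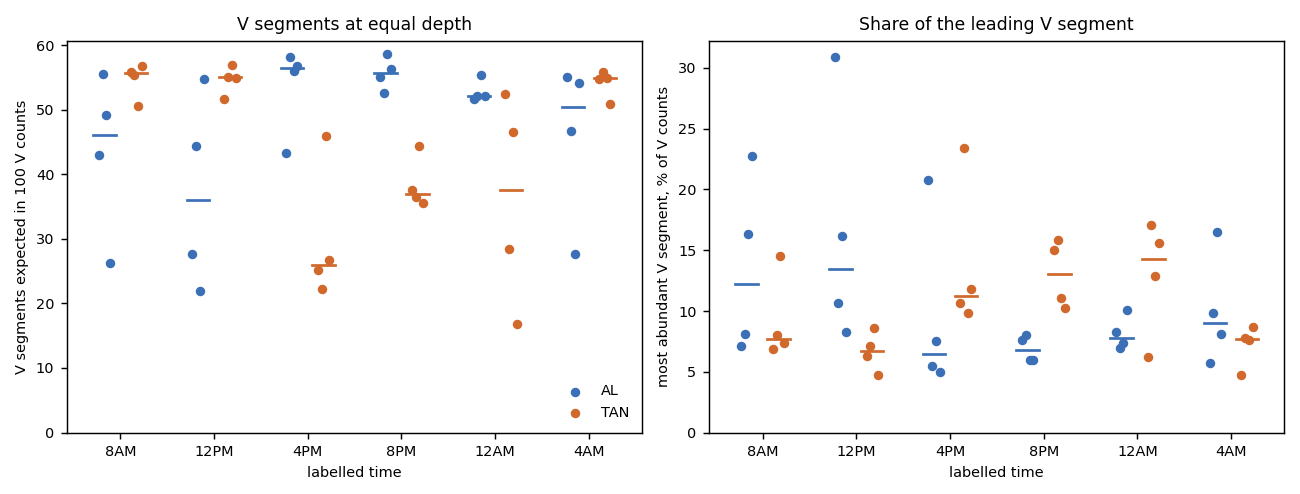
Left, number of V segments expected in 100 V counts, and right, share (%) of V counts on the leading V segment, both by labelled time with 1 point per library and diet in colour. The lowest value on the left is 16.9 segments, in a TAN library at 12 AM, and the highest on the right is 30.9%, in an AL library at 12 PM.

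The leading V segment was Iglv1 in 25 of 48 libraries, and Igkv10-96, Igkv3-2 and Iglv3 led 3 each. A V member had counts in 12 to 48 libraries (median 35), 2 were counted in all 48 (Iglv1 and Igkv14-126), and 37 in over 40. For 31 V members more than 25% of all counts came from 1 library, and for 5 more than 50%. Igkv3-2 had 2636 counts in AL replicate 1 at 12 PM, where it held 30.9% of V counts, and Igkv3-1 had 3699 in AL replicate 1 at 4 PM. Such segments weigh on any comparison of 4 libraries with 4.

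V counts were compared with constant counts of the same chain, a ratio that does not use the library total. Heavy chain V counts per 1000 heavy chain constant counts were 112, 97.0, 77.0 and 91.0 in AL and 33.1, 9.07, 48.8 and 25.2 in TAN at 4 PM, and 60.1, 76.4, 60.4 and 64.0 in AL and 14.1, 9.15, 43.3 and 27.6 in TAN at 8 PM. The diets did not overlap at either time. Kappa V counts per 1000 Igkc counts were 345, 371, 280 and 361 in AL and 188, 262, 294 and 208 in TAN at 4 PM, where TAN replicate 3 lay within the AL range. At 8 PM they were 303, 317, 349 and 353 in AL and 236, 205, 244 and 268 in TAN, without overlap. Heavy chain V segments were detected in numbers of 85, 77, 77 and 68 of 86 in AL at 8 PM and 7, 8, 45 and 18 in TAN, while 84, 84, 83 and 78 of 87 kappa V segments were detected in AL and 45, 48, 69 and 35 in TAN. The values of 7 and 8 belong to TAN replicates 1 and 2, with 15271 and 15866 genes detected, and those of 18 and 35 to TAN replicate 4, one of the 10 libraries with few B cell gene counts. TAN replicate 3 lay below the AL libraries at 8 PM in both ratios and both detected numbers. The heavy chain ratio was not low in TAN at every time, with 87.4, 103, 81.3 and 84 at 4 AM, when AL had 82.9, 76.0, 7.39 and 46.4.

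AL replicate 3 at 4 AM, the lowest for the heavy chain ratio, had 1007 CPM of Ighm beside 5.05 CPM of Ighd, 79.8 CPM of Igkc and 509 V counts, and a summed level of 5 skeletal muscle genes of 4937 CPM. Across the 10 libraries with a B cell gene sum below 50 CPM, 4 of AL among them, Ighd was at 1.55 to 11.3 CPM, Ighm at 89.7 to 1007 CPM, Igha at 7.22 to 32.9 CPM and Igkc at 29.3 to 730 CPM. IgM took 81.1% to 97.9% of their heavy chain constant counts and IgD 0.197% to 4.70%, 17 to 73 V segments were detected, J counts were 0 to 34, and Glycam1 was at 0 to 1.24 CPM. These libraries are listed as individual values and were not compared as a group.

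Genes that act with the segments were followed from lists, and at 4 PM 7.43% of all genes tested were called lower. Of 16 B cell genes, 9 were lower at 4 PM (among them Cd22, Cr2, Fcer2a, Pax5, Blk, Btk, Blnk and Pou2af1), with a list median log2 fold change of -3.90 against -0.09 for all genes. Cr2, the complement receptor of B cells, had 115, 98.1, 191 and 156 CPM in AL and 2.93, 1.03, 11.8 and 1.84 CPM in TAN, without overlap. Cd79a, which carries the signal of surface immunoglobulin, had 159, 133, 272 and 185 CPM in AL and 0.305, 1.3, 52.3 and 3.35 CPM in TAN and was not called (adjusted p = 0.0632). Of 10 plasma cell and secretion genes, 3 were lower. Jchain, which links the units of IgM and IgA, had 320, 196, 490 and 125 CPM in AL and 28.5, 11.6, 39.4 and 7.87 CPM in TAN (log2 fold change -3.69, SE 0.96, adjusted p = 0.0151). The transcription factor Irf4 (-1.62, adjusted p = 0.0194) and the ER protein Derl3 (-2.69, adjusted p = 0.0368) were the others, whereas Xbp1 (0.66, adjusted p = 0.138) and the syndecan Sdc1 (0.18) were not called and are also made by other cells of the tissue. The summed level of the 10 genes was 630 to 1028 CPM in AL and 568 to 907 CPM in TAN.

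At 4 PM 7.43% of all genes tested were called lower, and so were 3 of 7 germinal centre and class switching genes. Among them Rgs13, a germinal centre regulator of G protein signals, had 46, 1, 121 and 16 counts in AL and 0 in all TAN libraries. AL replicates 1 and 3, the highest for Rgs13, were also the highest for Ighg1 and Ighe. Gcsam was lower as well (-3.13, adjusted p = 0.0442). Of the 5 tested of 6 recombination and surrogate light chain genes, Rag1 was lower, with 34, 84, 40 and 216 counts in AL and 0 in TAN, and Rag2 had 6, 11, 5 and 4 counts in AL and 0 in TAN. Both recombinase genes were lower over the mean of the 6 times, where 1.59% of all genes tested were called lower. Of 10 immunoglobulin receptor genes 1 was lower, near the share of all genes, namely the inhibitory IgG receptor Fcgr2b (-1.28, adjusted p = 0.025). The summed level of the 10 was 505 to 526 CPM in AL and 392 to 541 CPM in TAN. The IgM receptor Fcmr, made by B cells, had 85.5 to 142 CPM in AL and 0.793, 0.108, 19.7 and 1.17 CPM in TAN. Of 5 adipocyte genes 1 was higher at 4 PM, where 586 of all 19977 genes tested were called higher. The adipocyte sums were 9180 to 14275 CPM in AL and 21090 to 43483 CPM in TAN, and 0 of 5 muscle and 0 of 4 blood genes were called. At 8 PM none of these lists had a called gene. The part of these cell markers in the segment results was not tested. The covariate fit at 4 PM does not test it, since the B cell gene sums of the diets did not overlap there.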

How the data were processed

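Bulk RNA-seq of sWAT (poly-A selected, paired-end) from 48 libraries was analysed. The deposited table holds raw counts per gene made by the authors, with no normalization. The submitters' processing notes name TopHat 1.3.3, DESeq2 1.20.0, limma, edgeR and the builds mm9, mm10 and GRCm38, without the role of each, and the counting tool and strand setting are not given in the sources used here. Annotation and sequences came from GENCODE M21. Groups followed the diet and time in the labels. Counts were scaled by TMM and filtered with filterByExpr (minimum count 10). They were fitted over all 48 libraries in 12 groups by edgeR 4.0.16 (quasi-likelihood, robust) in R 4.3.3. Fold changes used the default prior count of that fit, and p-values had Benjamini-Hochberg adjustment over 19977 genes. CPM values use the library totals multiplied by the TMM factors. Fold changes are on a log2 scale. Each SE was derived as the absolute log2 fold change divided by the square root of the F statistic of the test. It is not a separate estimate, and for genes near 0 in a diet it follows the prior count. Where all libraries of a diet were at 0, the bound used a floor of 3 counts per library. These bounds take the mean CPM of the other diet as measured and cover neither its counting error nor the spread between libraries.

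Some of the listed genes are not reported here by name. Members and gene lists were chosen with earlier results of these data known. Named genes were all constant and J members, the 3 V segments with the most counts per locus, the 2 V segments with the largest fitted fold per direction and time among those called, separated and with 10 counts or more in each library of the diet with the higher level, and the listed genes. Alternatives were DESeq2 1.42.0 (not run for the interaction), limma voom 3.58.1, RLE scaling, no filter, totals without immunoglobulin counts, fits per time, each library left out, and a replicate block. The labels do not tie equal replicate numbers to a mouse, litter or day, and deviations of equally numbered AL and TAN libraries correlated above 0.1 in 10 of 24 pairs (-0.48 to 0.71), so numbers were not treated as pairs. Of the 48 columns of the study's supplementary FPKM table, with 979 genes held, all 48 matched best a library labelled 12 h apart. The clock gene Dbp peaked in AL at 4 PM in the count table (101.9 ± 19.9 CPM, SD, n = 4) and was lowest at 8 AM (8.37 ± 4.99), and the labels of the count table were used. Scripts were checked on simulated data.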

Additional observations from a re-analysis of the deposited data

Results flagged for a closer look

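Single libraries far from the other 3 of their group, by Dixon's criterion at 95%, were found in 12 of 96 sets examined. A set was 1 measure in 1 of the 12 groups, and the measures share libraries, so the sets are not independent. The chance rate of about 1 in 20 holds for independent sets. Ighm was at 2137 CPM in AL replicate 3 at 4 PM, above its group, and at 160.7 CPM in TAN replicate 4 at 8 PM, below it. Igkc stood above its group in TAN replicate 1 at 12 PM (969.3 CPM) and below it in AL replicate 3 at 4 AM (79.81 CPM). Ighd reached 64.05 CPM in TAN replicate 3 at 4 PM, above the other 3. The leading V segment held 14.54% of V counts in TAN replicate 3 at 8 AM, 20.81% in AL replicate 1 at 4 PM and 23.39% in TAN replicate 2 at 4 PM. V segments expected in 100 counts were 43.24 in AL replicate 1 at 4 PM and 55.47 in AL replicate 3 at 12 AM. The IgA share of heavy chain constant counts was 9.706% in AL replicate 4 at 8 AM and 4.048% in TAN replicate 2 at 4 AM.

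The TAN effect differed between the 6 times in 36 members, by edgeR's quasi-likelihood test of the interaction. Of the named genes, 11 were among them. The adjusted p was 0.04066 for Ighm, 0.02198 for Ighe, 0.01022 for Ighj4, 0.01567 for Ighj2 and 0.01567 for Ighv1-64. It was 0.01329 for Igkj2, 0.01536 for Igkj3, 0.02246 for Igkj4 and 0.01859 for Igkj5, and 0.0196 for Ighv1-53 and 0.02474 for Igkv3-1. For these genes TAN was lower at 4 PM, and at 8 AM, 12 PM and 4 AM none was called.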

How the results depend on the processing

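The 4 PM count of 111 members was 80 to 137 under other scaling, filter, tool and separate fits, 67 without the 3 libraries of fewer than 16000 genes detected, 0 with the B cell covariate (both chosen after the data were seen) and 37 to 115 with 1 library left out (37 without AL replicate 3). The 8 PM count of 28 was 18 without the filter, 46 with DESeq2, 50 with limma voom, 11 without those 3 libraries, 1 in a separate fit and 14 to 38 with 1 library left out. The 12 AM count of 0 was 20 with DESeq2, 2 with limma voom and 0 to 16 with 1 library left out, and at 8 AM, 12 PM and 4 AM it was 0 in every alternative run. The count of 76 over the mean was 27 with limma voom, 40 with the covariate and 3 to 67 with 1 replicate number left out. Members varying over time in TAN (66) were 101 with DESeq2, 41 without the 3 libraries, 41 with the covariate and 1 to 55 with 1 number left out, and in AL (1) 0 with limma voom and 0 to 1 with 1 number left out. Members whose TAN effect differed between times (36) were 117 with limma voom, 14 with the covariate, 39 without the 3 libraries and 0 to 6 with 1 number left out. Fits with libraries left out hold fewer libraries, and the causes of these shifts were not tested. Of the values of named genes, 911 kept their direction and side of the threshold, 154 no longer passed, 29 now passed and 11 turned direction, all 11 with the covariate: at 4 PM Ighd (0.59), Ighj1 (3.48), Ighj3 (2.42), Ighv1-19 (1.5), Igkj1 (3.02), Iglc3 (0.0448), Iglj1 (0.0395) and Iglj3p (0.54), at 12 AM Ighd (0.10) and Iglv1 (0.0022), and over the mean Ighd (0.0716), all log2 fold changes.

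With the replicate number as a block the counts were 107 at 4 PM, 23 at 8 PM, 66 over the mean, 53 over time in TAN, 26 for the interaction and 0 over time in AL, where only this last left the range of 1.5 times the count without the block.

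Counts below 10 per library, as for J segments in many TAN libraries, and 4 libraries per group limit what can be seen, and the shares of single V segments rest on uncertain assignment between near copies.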
